A study of Mus musculus with 10 samples.

Results

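The genes examined here encode complement and coagulation factors that the liver makes and secretes into plasma. They were chosen by name, as a list of 34 mouse gene symbols, and 33 of them were found among the 15126 genes of the deposited expression table, each as a single Ensembl gene. The remaining member, Klkb1, the precursor of plasma kallikrein, was not analysed here. All 33 had a mean of at least 1 CPM (reads of a gene scaled to the library's total gene reads), as did 11041 genes in all.

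The livers described came from db/db mice, which lack a working leptin receptor and are obese and diabetic, at 10 weeks of age and 5 weeks after infection with a serotype 8 adeno-associated virus (AAV8). They form the AAV8-Control group, in which the virus carried eGFP, a fluorescent protein, and which had 5 RNA-seq libraries. Every one of these livers carried the virus and the db/db genotype, so no uninfected or lean liver stands beside them. The study gave the virus by tail vein, but the promoter of the vector is not given in the sources used here. Labels of the same samples name liver and also primary hepatocytes treated with an adenovirus, whereas the study's methods and the design text name liver, which was followed. Nothing in the labels states that each library is a separate mouse, so a spread given here is one between libraries and may be technical in part. All values describe this single group, and no test between groups is given.

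Complement is a cascade of plasma proteases and binding proteins that tags microbes and damaged cells for removal and can end in a pore in the target membrane. Coagulation is a parallel cascade of proteases that makes thrombin and a fibrin clot, and plasminogen with its regulators dissolves that clot again. Hepatocytes are the main source of most of these proteins, and liver factors such as HNF1, HNF4 and C/EBP, with STAT3 and NF-kappaB during inflammation, are known to drive many of their genes.

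The promoter windows of 3 members are shown: C3, because it was the member with the highest level, and C8a and C8b, because these neighbours on chromosome 4 had the widest spread from liver to liver. Each window is the 250 bases before the annotated start in the RefSeq table for GRCm38.p6, printed 5′ to 3′ on the strand of the gene. These are chr17:57228137-57228386 for C3 on the minus strand, chr4:104876399-104876648 for C8a on the minus strand and chr4:104766067-104766316 for C8b on the plus strand. Capitals mark matches to the motif letters described after them.
C3: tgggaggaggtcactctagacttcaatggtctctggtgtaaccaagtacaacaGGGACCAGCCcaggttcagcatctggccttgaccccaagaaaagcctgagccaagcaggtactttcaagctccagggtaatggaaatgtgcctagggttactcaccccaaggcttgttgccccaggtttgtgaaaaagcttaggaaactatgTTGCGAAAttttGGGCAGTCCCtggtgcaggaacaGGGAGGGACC
C8a: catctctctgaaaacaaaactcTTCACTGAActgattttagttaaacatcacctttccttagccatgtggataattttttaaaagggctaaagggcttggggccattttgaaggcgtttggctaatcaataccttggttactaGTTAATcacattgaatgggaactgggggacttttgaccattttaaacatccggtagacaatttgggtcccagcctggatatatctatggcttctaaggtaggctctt
C8b: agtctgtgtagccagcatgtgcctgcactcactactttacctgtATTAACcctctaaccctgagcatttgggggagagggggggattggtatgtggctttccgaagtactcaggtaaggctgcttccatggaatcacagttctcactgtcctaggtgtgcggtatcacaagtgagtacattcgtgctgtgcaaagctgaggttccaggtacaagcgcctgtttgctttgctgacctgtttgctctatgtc

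The motifs were searched on both strands as plain letters: GTTAAT for HNF1, CAAAGTCC for HNF4, TTGCNNAA for C/EBP, TTCNNNGAA for STAT factors and GGGANNNNCC for NF-kappaB. The C3 window held 1 C/EBP match, TTGCGAAA, at 45 to 38 bases before the start, and 3 NF-kappaB matches, of which the nearest ended at the base before the start. In the C8a window lay an HNF1 match 107 to 102 bases before the start and a STAT match, TTCACTGAA, at 228 to 220 bases. The C8b window held an HNF1 match on the opposite strand, 206 to 201 bases before the start. Of the 33 members, 25 had a window in the table. The HNF1 letters occurred in 6 of these, C4bp, C8a, C8b, F13b, Hc and Vtn, or 24.0%, against 6.43% of all 32851 windows of that length. The C/EBP, STAT and NF-kappaB letters each occurred in 4 members, or 16.0%, against 9.56%, 7.02% and 17.6% of all windows, and the HNF4 letters in 0 members against 1.20%. Each member was counted once, whatever its number of windows, whereas the shares over all are of single windows. The units therefore differ, and the counts of members are small. These matches are descriptions of letters and not of binding.

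The libraries held 19499795 to 35498596 reads counted on genes, and the least read member, C6, still had 258 reads in its lowest library. Hepatocyte markers, 10 of 10 with reads in every library, summed to 108327 to 143797 CPM, of which Alb, serum albumin, gave most, and this cannot tell the liver and the hepatocyte labels apart. Kupffer cell, endothelial and stellate cell markers also had reads in every library, 12 of 12, 10 of 10 and 11 of 11 genes, with sums of 219 to 450 CPM, 191 to 378 CPM and 422 to 544 CPM. The 6 cholangiocyte markers summed to 33.7 to 54.2 CPM. The neutrophil, platelet and lymphocyte lists summed to at most 2.90, 4.85 and 4.48 CPM, and neutrophil Camp, Ngp and Ltf and platelet Gp1bb, Treml1 and Gp9 were listed at 0 in at least 1 library. In bulk liver, fewer cells of a type and less RNA per cell cannot be told apart.

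The complement and clotting genes were among the more strongly expressed genes of these livers, and they differed widely from one another. Their level per length, given here as CPM per kilobase of annotated exon and averaged over the 5 livers, had a median of 156 over the members and of 4.56 over all genes at 1 CPM or more. Ranked by this level among 11036 genes with an exon length, 3 members, C3, Vtn and F2, lay in the first 100 and 25 of 33 in the first 1000. C3 was highest at 1117 ± 81.7 CPM per kilobase and rank 50 (SD, n = 5, here and for the levels that follow). Vtn followed at 981 ± 64.2, F2 at 742 ± 36.4, Plg at 517 ± 30.6, Kng1 at 505 ± 30.8 and Serpinc1 at 500 ± 14.9 CPM per kilobase. C6 was lowest at 4.37 ± 1.11 and rank 5638, with Masp1 at 8.66 ± 1.04, F11 at 9.5 ± 1.4, Pros1 at 12.4 ± 0.566 and Cfb at 14.6 ± 0.552 CPM per kilobase above it.

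Of the 32 pairs of neighbours in that order, 16 stood in the same order in all 5 livers, compared within each library. These were the 8 pairs whose ranges over the livers did not overlap and 8 of the 24 whose ranges did: C3 over Vtn, Cfi over Cpb2, F12 over C8g, C8g over Proc, Proc over C4bp, F10 over F13b, F13b over Mbl1 and F9 over F5. In the other 16 pairs the order changed in at least 1 liver, as it did for Plg over Kng1, which held in 3 of 5, and Kng1 over Serpinc1, which held in 2 of 5. The ranges did not overlap between Vtn and F2, F2 and Plg, Serpinc1 and Mbl2, F5 and Masp2, Masp2 and F7, Cfb and Pros1, Pros1 and F11, and Masp1 and C6.

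**Figure D1:**
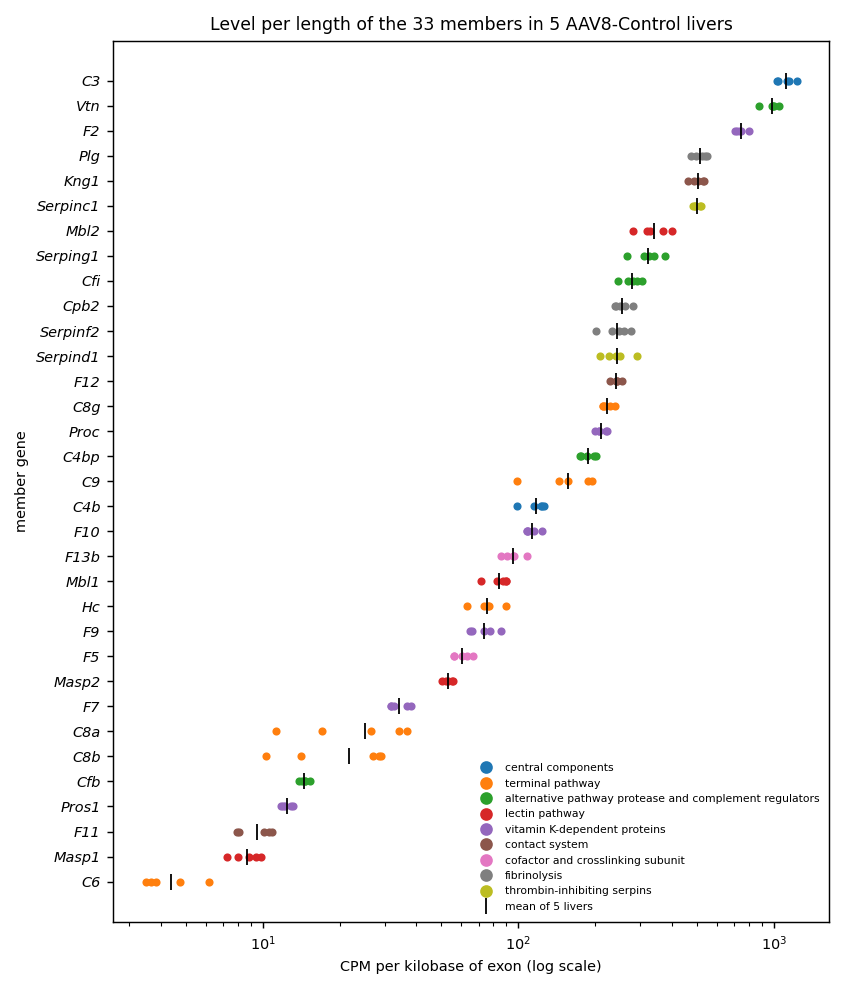
Level of the 33 members (y axis) as CPM per kilobase of exon on a log axis (x axis), with 1 point per liver coloured by role and a black bar at the mean of the 5 livers. Levels run from 4.37 for C6 to 1117 for C3, and the points of C8a, C8b and C9 are spread more widely than those of their neighbours.

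Only reads assigned to a single gene were counted, which bears on some of these levels. In the GENCODE M21 annotation, 81.6% of the exon bases of Cfb lie in Gm20547 on the same strand. Of Serpinc1, 58.3% lie in Zbtb37, and of Masp2, 56.3% lie in Tardbp, both on the opposite strand. Plg shares 15.2% with Slc22a3. The library protocol does not mark strand, so reads there could be left out, and the levels of these 4 members are uncertain. Likewise C4b and Kng1 have near-identical copies, C4a and Kng2, among which reads can be split or lost. The length used also bears on the levels. It joins the exons of all transcripts in the basic annotation, 5045 bases for Serpinc1 and 8545 for Masp1. Bases of a form little used in these livers would lower the level per length. The order, the ranks and the place of Serpinc1 under C3 therefore depend on the annotation.

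Together the 33 members took 2.30%, 2.22%, 2.12%, 2.33% and 2.26% of all gene reads in replicates 1 to 5. C3 alone made up 27.6%, 23.9%, 25.3%, 25.2% and 25.8% of the members' reads in these livers. Without C3, the other 32 members summed to 15839 to 17407 CPM. On CPM without further scaling, the thrombin-inhibiting serpins had the steadiest sum of all the roles, 3017 to 3089 CPM. The terminal pathway had the least steady, 974 to 1374 CPM.

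Most members varied little from liver to liver. The coefficient of variation (SD as a percentage of the mean over the 5 livers) had a median of 8.10% over the members and of 10.6% over all genes at 1 CPM or more. It exceeded 20% for 4 members, or 12.1%, against 17.6% of all genes, many of which have fewer reads and so a larger counting error. All 4, C8a at 43.4%, C8b at 40.8%, C6 at 25.5% and C9 at 24.3%, belonged to the terminal pathway. For C6 and C9 this rested on a single library, since C6 was not over 20% without replicate 2, nor C9 without replicate 3. On CPM without further scaling, the steadiest members were Serpinc1 at 2.99%, Cfb at 3.79%, F12 at 3.89%, Masp2 at 4.06% and Proc at 4.45%. Of the 6 vitamin K-dependent proteins, 5 lay under 10%, and F9 was at 11.6%.

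**Figure D2:**
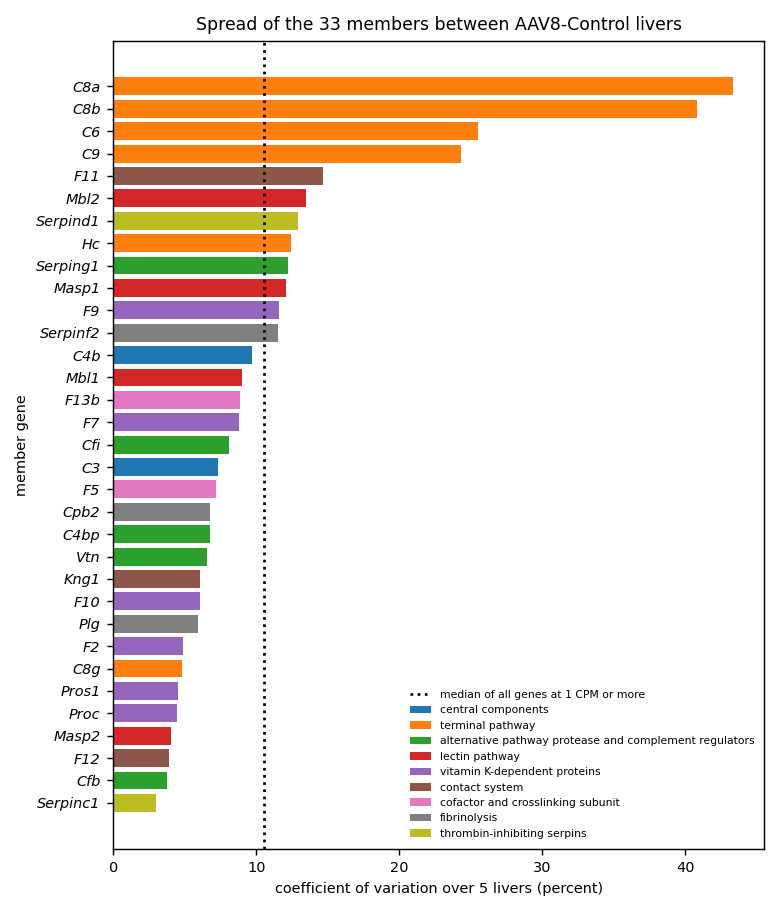
Coefficient of variation over the 5 livers in percent (x axis) for each of the 33 members (y axis), as bars coloured by role, with a dotted line at the median of all genes at 1 CPM or more, 10.6%. The bars of C8a, C8b, C6 and C9 are the longest, at 24.3% to 43.4%.

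The livers also differed as wholes. Replicate 4 was the highest of the 5 for 13 of the 33 members and replicate 1 for 9. The order of livers here and below is on CPM without further scaling. The TMM scaling factors from edgeR were 1.055 in replicate 1 and 0.9679 in replicate 4. Dividing by them lowers replicate 1 and raises replicate 4, so close orders can change, and the orders were not recomputed. Replicate 3 was the lowest for 15 members, among them C8a, C8b, C9, Mbl1, Mbl2, Plg and Serpind1, and the highest for 1. For 11 members the lowest 2 livers were replicates 1 and 3: Hc, C8a, C8b, C9, C4bp, Serping1, Vtn, F9, F11, F13b and Serpind1. The same counts were not made over all genes, so they do not set the members apart from other genes. The shift was small, since the median deviation of the members from their mean over the livers, on log2(CPM + 1), was -0.10 in replicate 3 and 0.10 in replicate 4. Replicate 3 was also the library with the most reads, 35498596. Its hepatocyte marker sum of 131868 CPM, mostly Alb, lay inside the range of the other livers, but replicate 3 was the lowest liver for 5 of the 10 hepatocyte markers, Apoa2, Serpina1c, Cps1, Tdo2 and Hpd. Without Alb the other 9 summed to 26824 CPM in replicate 3 and to 28326 to 32186 CPM in the other 4 livers. The remaining complement genes also summed lowest there, to 2620 CPM against 3033 to 3078 CPM. Clu alone gave 969 CPM of that sum in replicate 3 and 1166 to 1282 CPM in the others. Not every gene of that list was lowest there, since Fcna was highest in replicate 3 at 19.7 CPM. Kupffer cell, endothelial and stellate sums of replicate 3 lay inside the range of the others, whereas cholangiocyte and lymphocyte markers were lowest at 33.7 and 1.30 CPM and neutrophil and platelet markers highest at 2.90 and 4.85 CPM. The part of depth and of cell makeup in the members' values was not tested.

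**Figure D3:**
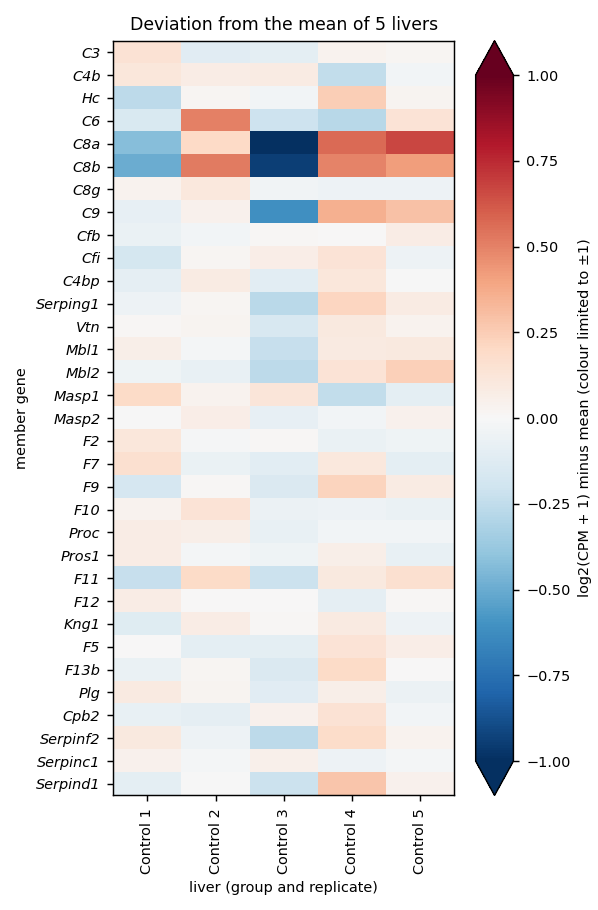
Deviation of each member (y axis) in each liver (x axis) from its mean over the 5 livers on log2(CPM + 1), with the colour limited to 1 either way. The column of replicate 3 is the lowest for 15 members, and the rows of C8a and C8b hold the strongest colours.

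Among the central components, C3 is the protein on which all complement pathways converge. In replicates 1 to 5 it was at 6329, 5304, 5361, 5878 and 5817 CPM, with a mean of 5738 ± 420 CPM. Replicate 1 was highest and replicates 2 and 3 nearly level at the bottom, and the highest liver exceeded the lowest 1.19-fold. C4b, the mouse C4 that the classical and lectin pathways cleave, was at 682, 662, 667, 530 and 619 CPM, lowest in replicate 4. Per length it stood at 118 ± 11.4 CPM per kilobase, far under C3.

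The terminal pathway assembles the membrane attack complex from C5 to C9, and its 6 members spanned a wide range of levels per length, from C8g at 223 ± 10.7 to C6 at 4.37 ± 1.11 CPM per kilobase. Hc, the mouse gene for C5, was at 343, 415, 401, 487 and 418 CPM, highest in replicate 4 and lowest in replicate 1. C9, which forms the ring of the pore, was at 295, 322, 203, 398 and 383 CPM, so that the highest liver exceeded the lowest 1.96-fold. C6, an early subunit of the complex, was at 13.2, 21.4, 12.7, 12.1 and 16.4 CPM. Replicate 2 stood highest for C6, whereas it lay in the middle for C9.

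Of the 3 subunits of C8, the component that first enters the membrane, C8a and C8b were low and high in the same livers and C8g did not follow them. C8a, the alpha subunit, was at 62.2, 96.2, 41.0, 124 and 134 CPM in replicates 1 to 5. C8b, the beta subunit, was at 31.7, 65.3, 23.1, 64.1 and 60.7 CPM. Both were low in replicates 1 and 3 and higher in the other 3 livers without overlap. The highest liver exceeded the lowest 3.27-fold for C8a and 2.83-fold for C8b, the widest ranges of all members. C8g, the gamma subunit, a lipocalin encoded on chromosome 2, was at 307, 322, 292, 289 and 289 CPM.

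The ratio of C8a to C8b reads was 1.96, 1.47, 1.78, 1.94 and 2.20 in replicates 1 to 5, a coefficient of variation of 14.4%, which is smaller than that of either gene. The ratio of C8a to C8g ran from 0.140 to 0.463, with a coefficient of variation of 45.6%. C8a and C8b lie on opposite strands of chromosome 4 with their ends 11130 bases apart, C8b at 104766317 to 104804548 and C8a at 104815679 to 104876398. F7 and F10, neighbours on chromosome 8 only 1498 bases apart, had a ratio of F10 to F7 that ran from 4.29 to 5.50. Its coefficient of variation of 10.2% was larger than that of either gene, 8.81% for F7 and 6.07% for F10. Endothelial markers summed to 378 and 316 CPM in replicates 1 and 3, where C8a and C8b were low, and to 191 to 265 CPM in the other 3 livers. Neutrophil markers split the same way at a very low level, 1.90 and 2.90 CPM against 0.387 to 0.915 CPM. The hepatocyte markers without Alb summed to 28326 and 26824 CPM in replicates 1 and 3 and to 29109 to 32186 CPM in the other 3. With Alb they did not split this way, at 108327 and 131868 CPM against 116730 to 143797 CPM. Single markers differed too, since Hpd was highest in replicate 1 at 2783 CPM. The remaining coagulation genes described further on summed to 24123 and 24386 CPM against 26355 to 28934 CPM. Other sums did not separate replicates 1 and 3 from the rest. These were the Kupffer cell, stellate, cholangiocyte, lymphocyte, platelet, acute-phase, transcription factor and remaining complement lists. Kupffer cell markers, for instance, were at 339 and 395 CPM against 219 to 450 CPM. The part of any of these in the C8 values was not tested, and with 5 livers no correlation was computed.

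**Figure D4:**
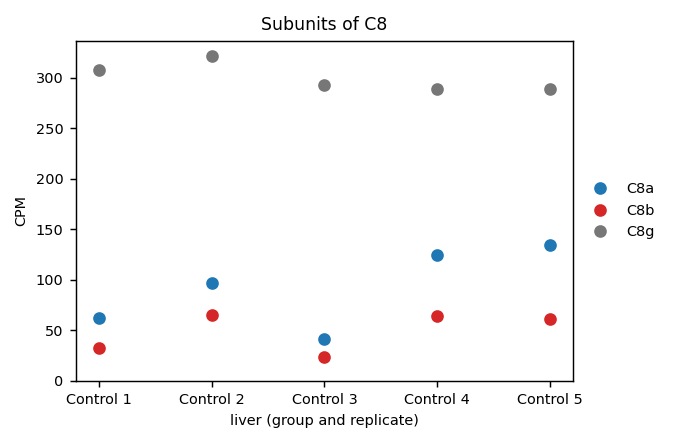
CPM (y axis, from 0) of C8a, C8b and C8g in each of the 5 livers (x axis), with 1 point per gene and liver. C8a and C8b are lowest in replicates 1 and 3, whereas C8g lies between 289 and 322 CPM in every liver.

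Among the alternative pathway protease and the complement regulators, Vtn, vitronectin, which binds terminal complexes before they insert, had the highest level per length. It was at 1718, 1741, 1524, 1825 and 1747 CPM, lowest in replicate 3, with a coefficient of variation of 6.54%. Serping1, the C1 inhibitor, which also restrains the contact system, varied more, from 536 to 752 CPM with a coefficient of variation of 12.2%. Cfi, the protease that inactivates C3b and C4b, ranged from 513 to 636 CPM, and C4bp, its cofactor for C4b, from 530 to 615 CPM. Cfb, factor B, the protease of the alternative pathway convertase, stood far lower at 38.1 to 42.2 CPM, under the limit on its counting given above.

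The lectin pathway members recognise sugars on microbes or act as the proteases bound to those lectins. Mbl2, a mannose-binding lectin, was the highest of them per length and was at 357, 349, 306, 403 and 434 CPM. Mbl1, the other mannose-binding lectin, was at 137, 129, 112, 140 and 140 CPM, and like Mbl2 it was lowest in replicate 3. Per length Mbl2 stood at 339 ± 45.7 and Mbl1 at 84.2 ± 7.56 CPM per kilobase, with no overlap. Masp2, the protease that cleaves C4 and C2, ranged from 162 to 180 CPM. Masp1, a second protease of this pathway, was at 83.9, 75.4, 80.3, 61.8 and 68.6 CPM, with replicate 4 the lowest.

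The vitamin K-dependent proteins carry a modified amino acid that lets them bind calcium and membranes, and F2, prothrombin, was by far the highest of them. F2 was at 1592, 1463, 1486, 1404 and 1431 CPM, a mean of 1475 ± 72.4 CPM with replicate 1 highest. Proc, the anticoagulant protein C, followed per length at 211 ± 9.38 CPM per kilobase and ranged from 329 to 364 CPM. F10, factor X, which cleaves prothrombin, ranged from 291 to 334 CPM.

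F9, factor IX of the intrinsic pathway, was at 178, 202, 181, 235 and 213 CPM, lowest in replicates 1 and 3. F7, factor VII, which starts coagulation with tissue factor, was at 70.8, 60.6, 59.0, 68.4 and 59.1 CPM, with replicates 1 and 4 above the other 3. Pros1, protein S, the cofactor of protein C, was the lowest of the role at 39.1 to 43.3 CPM and 12.4 ± 0.566 CPM per kilobase.

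The contact system can start coagulation on charged surfaces and releases bradykinin. Kng1, kininogen, the source of bradykinin, was at 1438, 1653, 1578, 1668 and 1517 CPM, lowest in replicate 1. F12, factor XII, which starts the contact pathway, was nearly level at 499, 475, 477, 447 and 478 CPM. F11, factor XI, which activates factor IX, was at 17.8, 24.3, 18, 22.7 and 23.6 CPM. Replicates 1 and 3 were the lowest livers for F11. Per length F12 stood at 242 ± 9.44 and F11 at 9.5 ± 1.4 CPM per kilobase.

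F5, factor V, the cofactor of factor X, was at 449, 418, 418, 493 and 469 CPM, with a coefficient of variation of 7.22%. F13b, the carrier subunit of the enzyme that crosslinks fibrin, was at 216, 229, 205, 258 and 227 CPM and at 8.86%. Both were highest in replicate 4.

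Of fibrinolysis, Plg, plasminogen, the precursor of the protease that dissolves fibrin, was highest per length and was at 1515, 1447, 1314, 1486 and 1364 CPM. Serpinf2, alpha2-antiplasmin, which blocks plasmin, was at 580, 520, 449, 614 and 554 CPM. Both were lowest in replicate 3. Cpb2, the carboxypeptidase that slows fibrinolysis, ranged from 354 to 416 CPM and was highest in replicate 4.

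Of the thrombin-inhibiting serpins, Serpinc1, antithrombin, the main plasma inhibitor of thrombin, was at 2593, 2489, 2610, 2433 and 2491 CPM. Without further scaling it was the steadiest of all members, at a coefficient of variation of 2.99%. Serpind1, heparin cofactor II, was at 496, 529, 458, 642 and 546 CPM and varied more, at 12.9%. On CPM, replicate 4 was the highest liver for Serpind1 and the lowest for Serpinc1. The spread of Serpinc1 is small beside the TMM factors, 0.9679 in replicate 4 and 1.055 in replicate 1, so its order of livers is uncertain.

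The rest of the complement pathway, 37 genes by name with 33 listed and 26 at 1 CPM or more, had a median level of 16.1 CPM per kilobase and a median coefficient of variation of 16.6%, with 9 genes over 20%. The highest per length were Clu, clusterin, at 649 CPM per kilobase, Cpn1, the carboxypeptidase that trims anaphylatoxins, at 156, and Cfhr2, a factor H relative, at 106. Among the 26 genes at 1 CPM or more, the widest spread was that of Cfd, factor D, which cleaves factor B and is best known as adipsin of fat cells. Cfd was at 9.85, 8.28, 2.79, 1.02 and 1.74 CPM, so replicates 1 and 2 stood apart from the other 3. Several genes of this list, C1qa, C1qb, C1qc and Vsig4, are also among the macrophage markers, all 12 of which had a coefficient of variation over 20%. The C2 gene, whose product joins C4b in a convertase, ranged from 13.9 to 19.8 CPM.

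The remaining coagulation and fibrinolysis genes, 44 by name with 43 listed and 35 at 1 CPM or more, had a median level of 49.5 CPM per kilobase and a median coefficient of variation of 10.8%. Of these, 9 were among the first 100 genes by level per length. The highest were Serpina1b and Serpina1d, near-identical copies of alpha1-antitrypsin, at 1897 and 1794 CPM per kilobase, and Apoh, beta2-glycoprotein I, at 1638. The fibrinogen chains Fga, Fgb and Fgg, which form the clot itself, stood at 1000, 760 and 1101 CPM per kilobase. F8, the cofactor of factor IX and one of the endothelial markers used here, was at 9.84 to 18.9 CPM.

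The 18 acute-phase genes, which share none with the members, summed to 7464, 8353, 8937, 9046 and 7557 CPM in replicates 1 to 5. Saa1, serum amyloid A1, ranged from 23.0 to 59.7 CPM. Of 15 hepatocyte transcription factors, all at 1 CPM or more, Hnf4a, Cebpa and Nr1h4 were the highest per length, at 142, 129 and 53.6 CPM per kilobase. Hnf4a, a regulator of many clotting factor genes, ranged from 573 to 735 CPM, and Stat3, which relays IL-6 signals to acute-phase genes, from 76.5 to 87.3 CPM. Whether these factors bear on the members' values was not tested.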

How the data were processed

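Poly-A RNA from the livers was sequenced by the study as single reads. The authors aligned the reads with STAR 2.0.4b to the Ensembl release 76 assembly (GRCm38.p2 in the submitters' processing notes) and counted uniquely aligned, unambiguous reads per gene with featureCounts 1.4.5. The authors deposited the values as CPM, a step their methods do not describe. The deposited table had 15236 lines for 15126 genes, since 110 lines repeat a gene, and each gene was used once. Dividing by the CPM of a single read gave whole reads for 100% of values, within 0.02 of a read. The listed genes hold 97.8% to 98.3% of each library's gene reads. No pair of libraries was alike within sampling noise (chi-square per degree of freedom at least 16.8).

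The comparison between groups and the samples other than AAV8-Control are not reported here, so no differential test was run and a mean ± SD is over 5 libraries. Positions and exon lengths are those of GENCODE M21 on GRCm38. The members and lists were chosen with earlier results of these data known. All members are given by level and range, and those given in every liver, like the genes named from other lists, were singled out with their values in view.

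Levels were recomputed with the CPM rescaled by TMM factors from edgeR 4.0.16 and by DESeq2 1.42.0 size factors, both from the recovered reads, and with each library left out.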

Additional observations from a re-analysis of the deposited data

How the results depend on the processing

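All 7 alternatives were chosen after seeing the data, and those planned for a test between groups were not run, since no such test is given. No paired analysis was possible because only 1 group is described. Rescaling by TMM or DESeq2 size factors moved the members' mean levels by -0.191% to 0.619%. Both sets of factors are centred on 1 over the same 5 libraries, so these means can move little whatever the factors are. Values of single livers move more, with TMM factors from 0.9679 in replicate 4 to 1.055 in replicate 1. The orders of livers were not recomputed with them. Leaving out 1 of 5 libraries moved them by -11.6% to 13.8%, a shift that is bounded by the spread itself and so is no measure of stability. The members' share of gene reads was then 2.22% to 2.27%, and the share of C3 in the members' reads 25.1% to 26.0%. Members with a coefficient of variation over 20% were 3 to 4, since C6 was not among them without replicate 2 nor C9 without replicate 3. The fewest reads of a member in a library were 258, and counting error takes a larger part of the spread where a member has few reads.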
